A study of Danio rerio with 10 samples.

Results

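The Hox cluster genes of zebrafish were followed through a study of benzo[a]pyrene (BaP), a combustion hydrocarbon that activates the aryl hydrocarbon receptor. They were every gene of the Ensembl table at 96 hours post fertilization (hpf) whose symbol starts with hox, a cluster letter and a number, 48 of 18910 listed genes. RNA was sequenced from pooled whole animals of the AB line, with 3 libraries labelled BaP (50 µg/L) and 3 labelled control (0.1 mL/L) at 3.3 hpf, and 2 BaP and 2 control libraries at 96 hpf. The labels do not say when exposure began, what the control volume held or how many animals went into a pool. Nothing in them ties replicates to different clutches or tanks, and the p-values therefore reflect sample-to-sample spread that could be purely technical. In whole animals, fewer cells of a type and less RNA per cell cannot be told apart.

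Hox genes encode homeodomain transcription factors that lie side by side in clusters and give cells their position along the head to tail axis. The number in a name is the paralog group, which follows the order in the cluster. Low numbers act in the hindbrain and pharyngeal arches, middle numbers in the trunk, and high numbers in the tail and the outer part of the fins. Teleosts duplicated their genome, so a zebrafish cluster can have an a and a b copy, and some genes survive as pairs. Expression normally starts during gastrulation, after the blastula stage sampled at 3.3 hpf, and in larvae it persists in the hindbrain and spinal cord.

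The 48 genes covered 13 paralog groups and 7 cluster copies, with 11 genes each in ba (hoxba) and ca, 7 in da, 6 in aa, 5 in ab, and 4 each in bb and cb. They included 10 duplicated pairs. The values were CPM, the reads of a gene scaled by the authors so that every library has the same fixed total, to which TMM scaling was added here to even out differences in composition. CPM is not divided by gene length, so an order of CPM values is an order of reads and not of RNA molecules. Depth was estimated from the CPM step that best fitted 1 read, at 13.2 to 17.7 M reads at 96 hpf and 17.5 to 22.2 M reads at 3.3 hpf. Per library, 51.9% to 65.4% of genes at 96 hpf then came within 0.05 of whole reads. At 3.3 hpf it was 36.0% to 40.5%. All read numbers given here rest on this estimate. At 96 hpf the Hox genes together drew between 7576 and 9383 reads per library, the median gene between 126 and 152, and the lowest gene between 14 and 17. The labels of whole animals and of age were set beside tissue markers. All 5 muscle, 3 lens and 4 liver markers were listed at 96 hpf and 0 of them at 3.3 hpf. All 10 neuronal, 5 pronephros and 6 pectoral fin bud markers were also listed at 96 hpf. Of these, 3 neuronal, 3 pronephros and 1 fin bud markers were listed at 3.3 hpf as well. At 96 hpf the exposure itself showed in cyp1a, the standard target of the aryl hydrocarbon receptor. This gene had 779 and 854 CPM in BaP larvae against 16.0 and 15.6 CPM in control larvae. No such check was made at 3.3 hpf.

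At 96 hpf most Hox genes drew few reads. Their median was 9.002 CPM, against 12.4 CPM over all listed genes. Summed, they made up 554 and 564 CPM in BaP larvae and 575 and 474 CPM in control larvae (mean 559 ± 6.86 and 525 ± 71.9, SD, n = 2 each). The BaP libraries lay close together and inside the range of the control libraries. Of the 48 genes, 7 averaged over 20 CPM across the 4 libraries, 29 lay between 5 and 20 CPM, and 12 lay under 5 CPM, of which 5 were under 2 CPM.

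**Figure D1:**
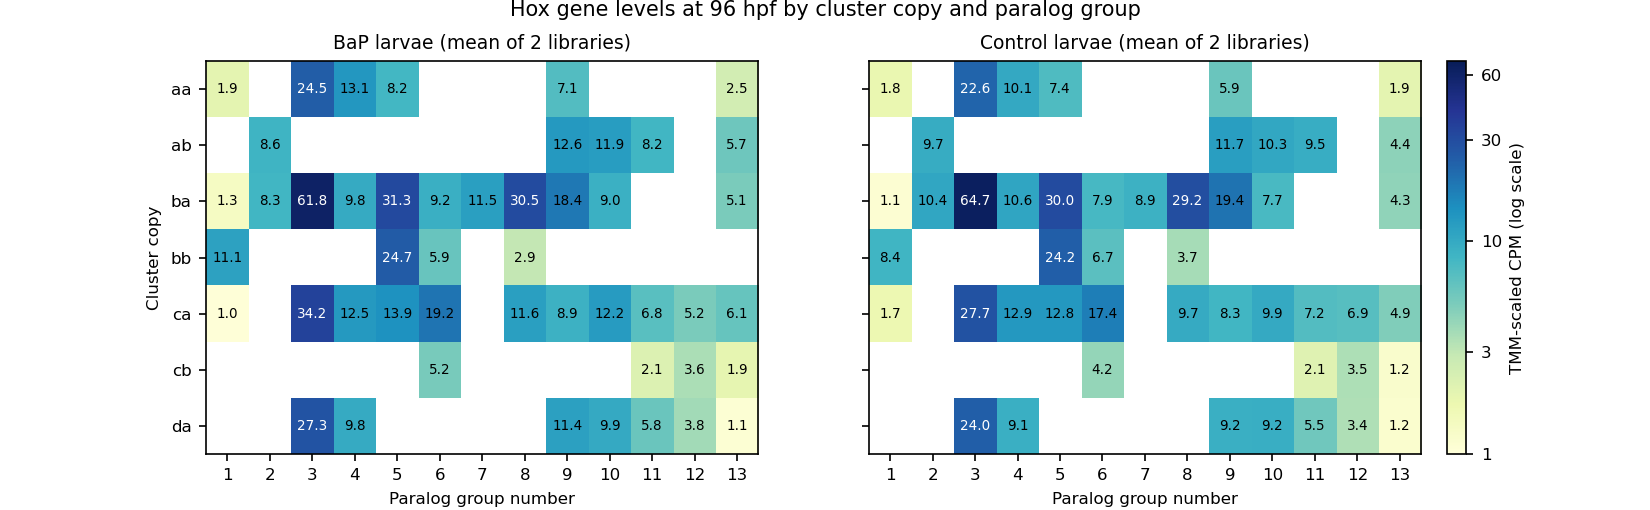
Mean TMM-scaled CPM (colour, log scale; number in each cell) of the 48 Hox genes at 96 hpf, by cluster copy (rows) and paralog group number (columns), for BaP larvae (left) and control larvae (right), 2 libraries each. White cells hold no listed gene. The column of paralog group 3 and the row of copy ba carry the highest values in both panels.

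Paralog group 3, whose genes pattern the posterior hindbrain and the arches behind the jaw, drew the most reads of any group. Its 4 genes took 26.4% of the Hox CPM in BaP larvae and 26.6% in control larvae. hoxb3a was the highest Hox gene in every library, at 63.8 and 59.7 CPM in BaP larvae against 66.6 and 62.8 CPM in control larvae. Its lowest library stood above the highest library of the next gene. The lead was smaller in the RefSeq table, where hoxb3a averaged 40.8 CPM before TMM scaling, hoxb5a 36.1 CPM and hoxb8a 35.1 CPM. hoxc3a had 30.6 and 37.8 CPM in BaP larvae against 29.3 and 26.1 CPM in control larvae. hoxd3a had 27.8 and 26.7 CPM in BaP larvae against 26.5 and 21.5 CPM in control larvae. hoxa3a had 23.8 and 25.2 CPM in BaP larvae against 23.7 and 21.5 CPM in control larvae. In the RefSeq table hoxa3a averaged 19.1 CPM, under hoxc8a at 25.7 CPM and hoxc4a at 20.7 CPM. In the Ensembl table all 4 group 3 genes were among the 7 above 20 CPM.

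The remaining genes of that top set belonged to middle groups. They were hoxb5a, at a mean of 30.7 CPM over the 4 libraries, hoxb8a at 29.9 CPM and hoxb5b at 24.4 CPM. Group 5 genes set position near the hindbrain to trunk boundary, and in zebrafish hoxb5b limits the size of the atrial heart field. Group 5 took 13.97% of Hox CPM in BaP larvae and 14.1% in control larvae. hoxb5b had 26.0 and 23.3 CPM in BaP larvae against 28.5 and 19.9 CPM in control larvae, so its control libraries spread more widely than its BaP libraries.

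At the other end, 5 genes lay under 2 CPM. hoxd13a averaged 1.12 CPM over the 4 libraries, hoxb1a 1.22 CPM, hoxc1a 1.36 CPM, hoxc13b 1.52 CPM and hoxa1a 1.84 CPM. They came from group 1, which acts early in the hindbrain, and group 13, which acts at the tail end and in the outer fin. Reads did not slope steadily along the numbers. Group 1 took 2.76% of Hox CPM in BaP larvae and 2.47% in control larvae, far under the share of group 3. Group 12 took 2.26% in BaP larvae and 2.64% in control larvae. These sums rest on unequal numbers of genes, from 1 in group 7 to 6 in group 13. Taken in 3 blocks, groups 1 to 3 held 32.2% in BaP larvae and 32.9% in control larvae, groups 4 to 8 held 39.2% and 39.0%, and groups 9 to 13 held 28.5% and 28.1%. In the order of all 48 means, 44 of the 47 steps between neighbours joined genes whose library ranges overlapped. The ranges of neighbours did not overlap at the steps below hoxb3a, below hoxa3a and below hoxc6a. This order is that of the Ensembl table. In the RefSeq table hoxc6a averaged 8.48 CPM, above hoxc5a at 7.34 CPM but under hoxc4a at 20.7 CPM and hoxa4a at 13.6 CPM.

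By cluster copy, ba held 35.1% of Hox CPM in BaP larvae and 37.1% in control larvae, and ca, with as many genes, held 23.5% and 22.7%. The 7 genes of da followed with 12.4% in BaP larvae and 11.7% in control larvae, and the 6 genes of aa with 10.3% and 9.50%. The smaller copies ab, bb and cb held 8.41%, 7.997% and 2.29% in BaP larvae and 8.70%, 8.14% and 2.08% in control larvae. By the mean over the 4 libraries, the leading gene was hoxa3a in aa, hoxa9b in ab, hoxb3a in ba, hoxb5b in bb, hoxc3a in ca, hoxc6b in cb and hoxd3a in da. The lead was narrow in ab and cb. In ab, where no group 3 gene was listed, hoxa9b had 12.96 and 12.2 CPM in BaP larvae against 12.99 and 10.4 CPM in control larvae, and hoxa10b exceeded it in BaP replicate 2, at 12.5 CPM. In the RefSeq table hoxa9b averaged 7.29 CPM, under hoxa2b at 10.6 CPM and hoxa10b at 10.5 CPM. In cb, hoxc6b had 4.68 and 5.71 CPM in BaP larvae against 4.56 and 3.81 CPM in control larvae, and hoxc12b exceeded it in control replicate 1, at 4.63 CPM.

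Several of these genes have overlapping spans, which may limit how their reads can be separated. Whole spans were compared without regard to strand, and overlap of exons was not examined. In the current RefSeq annotation of the GRCz12tu assembly, 18 of the 48 genes have a span that overlaps the span of another Hox gene. hoxc3a overlaps 5 others, hoxb3a 3, hoxa3a 2, hoxb1b 2 and hoxd3a 1. The labels name no strand-marking kit, and how shared reads were assigned is not given in the sources used here, so values of overlapping genes are uncertain. A second table by the same authors, built on RefSeq transcripts, listed 46 of the 48 genes. Over 10072 genes in both tables, RefSeq values were higher by a median of 0.23 on the log2 scale. Relative to that median, 12 of 46 Hox genes differed more than 1.5-fold between the tables and 5 more than 2-fold. Those 5 were hoxc6a, lower in the RefSeq table by 1.34 on the log2 scale, hoxb9a by 1.19, hoxc5a by 1.09 and hoxc12b by 1.03, and hoxc8a, higher by 1.04.

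In the Ensembl table each of the 10 duplicated pairs had the same leading copy in every library. In 7 pairs (hoxb5, hoxb6, hoxb8, hoxc6, hoxc11, hoxc12 and hoxc13) the a copy drew more reads than the b copy in all 4 libraries. In 3 pairs (hoxa9, hoxa13 and hoxb1) the b copy drew more in all 4. The order of hoxa9 turned in the RefSeq table, where hoxa9a averaged 7.68 CPM and hoxa9b 7.29 CPM over the 4 libraries. The most uneven pair was hoxb8, where hoxb8a averaged 30.5 CPM and hoxb8b 2.95 CPM in BaP larvae, against 29.2 and 3.68 CPM in control larvae. hoxb1 leaned the other way, with hoxb1a at 1.34 CPM and hoxb1b at 11.1 CPM in BaP larvae against 1.098 and 8.43 CPM in control larvae. hoxb1a keeps the identity of the fourth hindbrain segment in zebrafish, and hoxb1b acts upstream of it during gastrulation. hoxa13 showed the same lean, with hoxa13a at 2.47 CPM and hoxa13b at 5.65 CPM in BaP larvae against 1.94 and 4.43 CPM in control larvae.

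The remaining pairs ranged between near even and strongly uneven in the share of reads that fell on the a copy. For hoxa9 the a copy took 36.2% of the pair in BaP larvae and 33.6% in control larvae, with hoxa9a at 7.14 CPM and hoxa9b at 12.6 CPM in BaP larvae against 5.90 and 11.7 CPM in control larvae. For hoxb5 it took 55.9% in BaP larvae and 55.6% in control larvae, with hoxb5a at 31.3 CPM and hoxb5b at 24.7 CPM in BaP larvae against 30.05 and 24.2 CPM in control larvae. For hoxc6 it took 78.7% in BaP larvae and 80.5% in control larvae, with hoxc6a at 19.2 CPM and hoxc6b at 5.19 CPM in BaP larvae against 17.4 and 4.18 CPM in control larvae. Both groups sat on the same side of an even split for each of these pairs. For hoxc11 the a copy took 76.1% in BaP larvae and 76.5% in control larvae, with hoxc11a at 6.80 CPM and hoxc11b at 2.15 CPM in BaP larvae against 7.15 and 2.05 CPM in control larvae. For hoxc13 it took 76.6% in BaP larvae and 80.6% in control larvae, with hoxc13a at 6.07 CPM and hoxc13b at 1.86 CPM in BaP larvae against 4.85 and 1.18 CPM in control larvae.

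**Figure D2:**
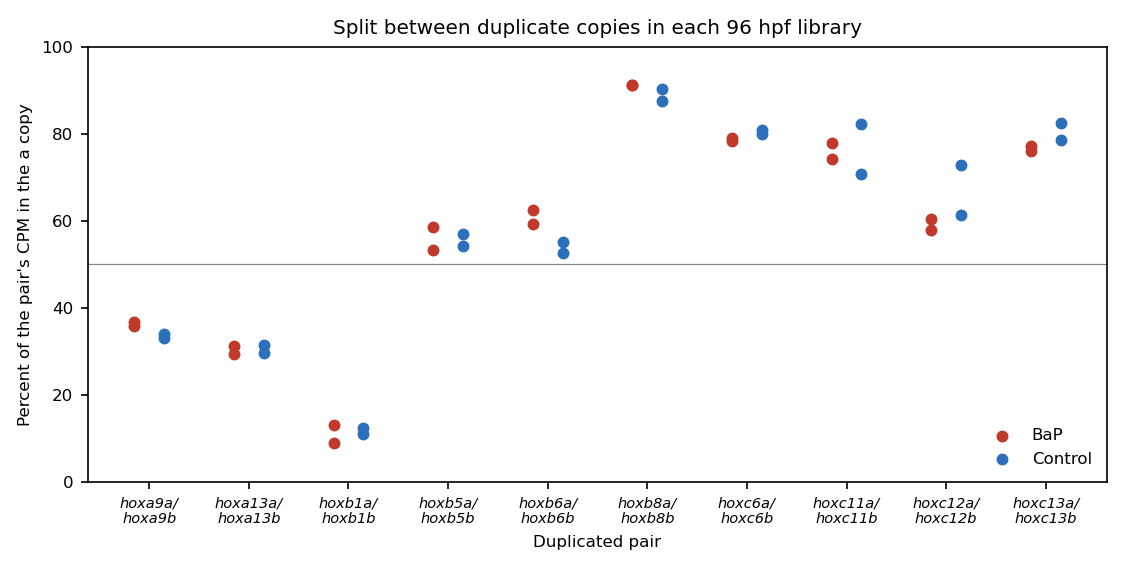
Percent of each duplicated pair's CPM that fell on the a copy (vertical axis) in each 96 hpf library, BaP in red and control in blue, for 10 pairs. The line marks an even split. In all 4 libraries 3 pairs lie under it and 7 above it.

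The largest differences between exposure groups were in hoxb6 and hoxc12. The a copy of hoxb6 took 62.6% and 59.2% of the pair in BaP larvae against 55.3% and 52.7% in control larvae, from hoxb6a at 9.24 CPM and hoxb6b at 5.94 CPM in BaP larvae against 7.91 and 6.70 CPM in control larvae. The a copy of hoxc12 took 58.0% and 60.5% in BaP larvae against 61.4% and 72.9% in control larvae, from hoxc12a at 5.17 CPM and hoxc12b at 3.59 CPM in BaP larvae against 6.94 and 3.53 CPM in control larvae. The shares of 6 of the 10 pairs did not overlap between groups, 3 of them higher in BaP larvae and 3 lower. Such separation was common with 2 libraries a group. In CPM, 26.0% of all genes lay wholly above control in BaP larvae and 24.3% wholly below. The pair shares are therefore descriptions, and no pair moved across an even split.

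BaP did not change any Hox gene past the test at 96 hpf. limma, fitted over all 18910 genes, called 0 of the 48 at an adjusted p of 0.05, where it called 80 genes in all, 0.423% of those tested. The count over all genes depended on single libraries, at 3223 without BaP replicate 1, 247 without BaP replicate 2, 129 without control replicate 1 and 32 without control replicate 2, with 0 Hox genes called each time. No Hox gene had an unadjusted p under 0.05 (2980 of all genes did), and the adjusted p of the 48 ran between 0.402 and 0.981. Differences are on the scale of log2(CPM + 0.5), which understates the change of low genes. They ran from -0.50 to 0.50, with a median of 0.12 over the Hox genes and 0.02 over all genes. The 95% intervals reached at most -1.27 and 1.24, and 46 of 48 (95.8%) lay wholly between -1 and 1 on this scale, as did 73.3% of all genes. The exceptions were hoxc1a and hoxc13b. For genes of a few CPM a 2-fold change in CPM is less than 1 on this scale, so these intervals do not exclude it for all of the 46.

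**Figure D3:**
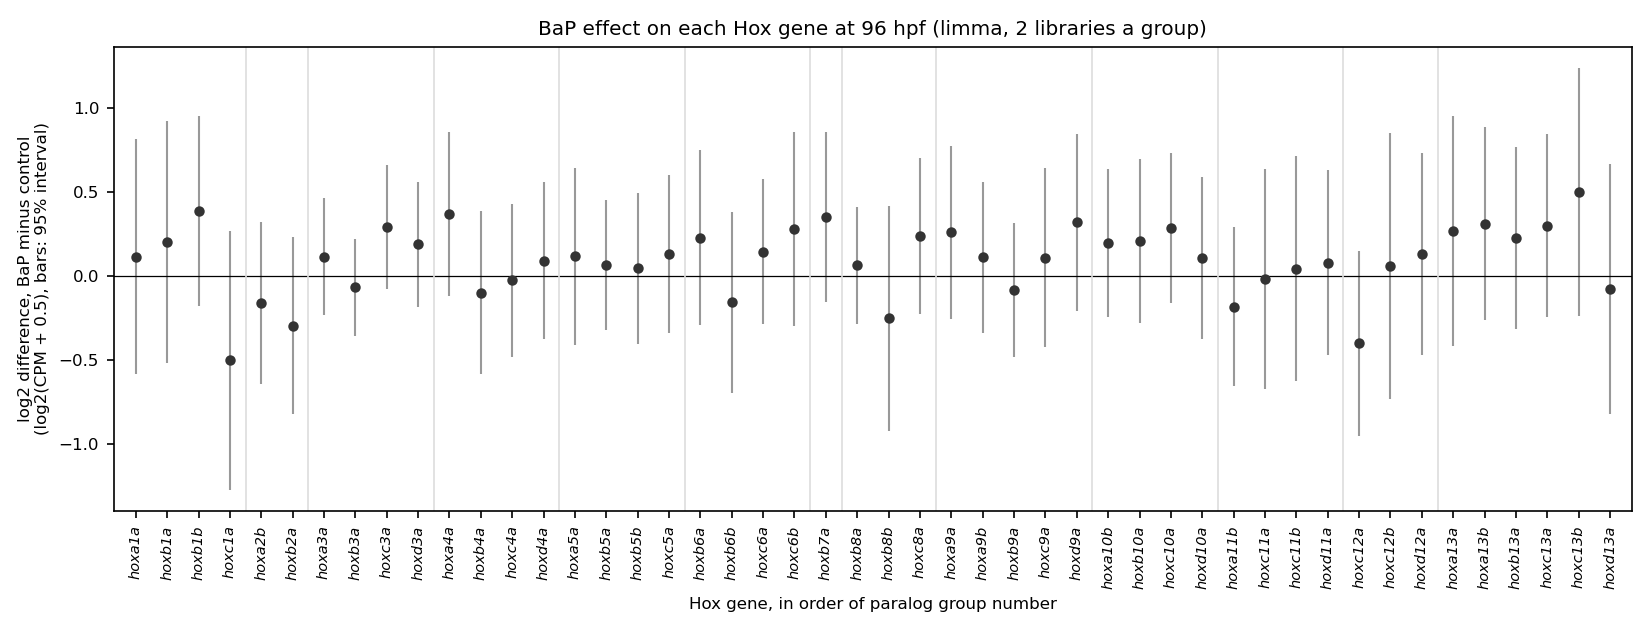
Difference between BaP and control larvae at 96 hpf (log2(CPM + 0.5), BaP minus control) for each of the 48 Hox genes in order of paralog group, with 95% intervals from limma and 2 libraries a group. Every interval crosses 0, and the points run between -0.50 and 0.50.

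Among the genes that lead their cluster copy, hoxc3a had the largest difference, 0.29 ± 0.16 (SE; limma adjusted p = 0.402). Its BaP libraries lay above its control libraries. hoxc6b differed by 0.28 ± 0.25 and hoxd3a by 0.19 ± 0.16, both also with BaP libraries above control libraries. hoxa3a differed by 0.12 ± 0.15, hoxa9b by 0.11 ± 0.19, hoxb5b by 0.05 ± 0.20 and hoxb3a by -0.07 ± 0.13. The 95% interval of each of these 7 genes included 0. In the RefSeq table the differences were 0.22 for hoxc3a, 0.055 for hoxc6b, 0.16 for hoxd3a and 0.013 for hoxa3a. There hoxa9b differed by -0.046, hoxb5b by 0.004 and hoxb3a by -0.33.

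The highest difference was that of hoxc13b, at 1.73 and 1.98 CPM in BaP larvae against 1.44 and 0.923 CPM in control larvae (log2 difference 0.50 ± 0.32, limma adjusted p = 0.460). hoxb1b had 9.49 and 12.8 CPM in BaP larvae against 9.87 and 6.98 CPM in control larvae (0.39 ± 0.25, adjusted p = 0.459 by limma), so that one control library lay inside the BaP range. hoxa4a, a gene of the hindbrain to spinal cord boundary, had 12.1 and 13.98 CPM in BaP larvae against 11.5 and 8.60 CPM in control larvae (0.37 ± 0.21, limma adjusted p = 0.419). In hoxc13b and hoxa4a both BaP libraries lay above both control libraries.

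The lowest difference was that of hoxc1a, at 1.03 and 1.02 CPM in BaP larvae against 2.13 and 1.27 CPM in control larvae (log2 difference -0.50 ± 0.33, limma adjusted p = 0.478). It rested on 16 and 17 reads in BaP larvae against 28 and 22 reads in control larvae. hoxc12a had 5.84 and 4.50 CPM in BaP larvae against 7.37 and 6.52 CPM in control larvae (-0.40 ± 0.24, limma adjusted p = 0.436). hoxb2a, a hindbrain and second arch gene, had 7.95 and 8.65 CPM in BaP larvae against 12.2 and 8.65 CPM in control larvae (-0.30 ± 0.23, limma adjusted p = 0.543). Control replicate 2 of hoxb2a, at 8.649 CPM, was thus level with BaP replicate 2, at 8.648 CPM.

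BaP libraries lay wholly above control libraries in 19 of the 48 genes, where 26.0% of all genes did, and wholly below in 4, where 24.3% of all genes did. The 4 were hoxc1a, hoxc12a, hoxb2a and hoxa11b, with hoxb2a counted on a near tie of BaP replicate 2 and control replicate 2. By paralog group, 5 of the 6 genes of group 13 were among the 19, with a summed level of 20.5 and 24.1 CPM in BaP larvae against 19.0 and 16.8 CPM in control larvae. Group 3 had 3 of 4 (hoxa3a, hoxc3a and hoxd3a), summing to 146 and 149 CPM in BaP larvae against 146 and 132 CPM in control larvae. Group 10 also had 3 of 4, summing to 41.7 and 44.3 CPM in BaP larvae against 40.5 and 33.9 CPM in control larvae. Group 2, which has hoxa2b and hoxb2a, had 0 of 2, summing to 16.1 and 17.7 CPM in BaP larvae against 22.9 and 17.4 CPM in control larvae. Among cluster copies, all 6 genes of aa and all 4 of cb had a positive difference, but 0 of these 10 passed the test.

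This lean towards higher values rested on 1 control library. In all, 35 of 48 Hox genes were higher in BaP larvae (72.9%, against 52.2% of all genes), with a median log2 difference of 0.12, but 23 of 48 were, with a median of -0.02, when control replicate 2 was left out. Relative to the median of all genes, the Hox median was higher by 0.10 with TMM scaling and by 0.04 in the RefSeq table. RLE scaling and CPM as deposited also gave 0.10, but that match was fixed in advance. Scaling shifts all genes of a library nearly alike, and subtracting the median of all genes removes the shift. With CPM as deposited 29 of 48 genes were higher in BaP larvae, and 32 of 46 in the RefSeq table. Without control replicate 1 the count was 38 of 48 and the median 0.27. Control replicate 1 was above control replicate 2 in 45 of 48 Hox genes (93.8%), where it was above in 48.6% of all genes. Control replicate 2 was the lowest of the 4 libraries in 34 of 48 Hox genes (70.8%) and in 29.5% of all genes. Its median deviation from each Hox gene's mean was -0.20 on the log2 scale, against 0.08 in control replicate 1 and 0.05 in both BaP libraries, so the 2 control libraries differed from each other by more than the groups did. Most of the set, but not all of it, therefore differed in the same direction between the control libraries. BaP replicate 1 was above BaP replicate 2 in 24 of 48. Since 18 of the genes overlap the span of another Hox gene, they may not all be separate measures. Whether they share reads was not tested.

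**Figure D4:**
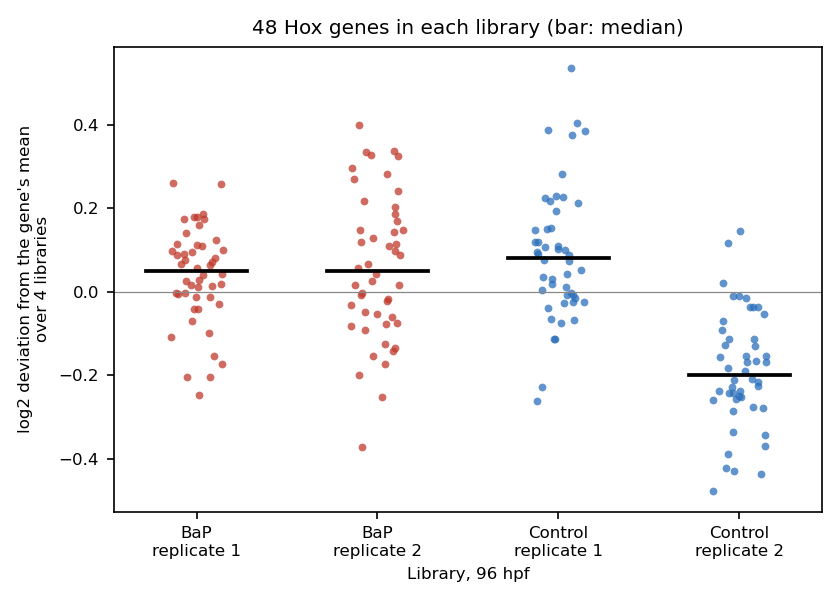
Deviation of each Hox gene from its mean over the 4 libraries at 96 hpf (log2 scale; 1 point a gene, 48 points a library, bars at the median), for BaP replicates 1 and 2 (red) and control replicates 1 and 2 (blue). The medians are 0.05, 0.05, 0.08 and -0.20, with control replicate 2 below the other libraries.

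Marker levels also differed between the libraries, and not all in the order of the Hox genes. The 10 neuronal markers summed to 2193 and 1962 CPM in BaP larvae against 2259 and 2036 CPM in control replicates 1 and 2, and 9 of the 10 were higher in control replicate 1 than in control replicate 2, but their lowest sum was in BaP replicate 2. The 8 markers of motor neurons and hindbrain summed to 143 and 125 CPM in BaP larvae against 153 and 134 CPM in control replicates 1 and 2. Of these, 5 of the 8 were higher in control replicate 1. BaP replicate 2 had the lowest sum again, and also their lowest median deviation, at -0.23. None of these markers was at 0. The liver markers summed to 4702 and 7354 CPM in BaP larvae against 4497 and 3549 CPM in control replicates 1 and 2, and 4 of 4 were higher in control replicate 1. The 5 listed exocrine pancreas markers summed to 1151 and 1383 CPM in BaP larvae against 655 and 783 CPM in control replicates 1 and 2, and 0 of 5 were higher in control replicate 1. Pectoral fin, pronephros, muscle and lens markers had 3 of 6, 1 of 5, 4 of 5 and 3 of 3 genes higher in control replicate 1. On the first principal component of all genes, 68.6% of the variance, the BaP libraries stood at 4.10 and 52.9 and the control libraries at -20.7 and -36.3. The part of these differences in the Hox values was not tested.

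The transcript table listed 69 Hox transcripts at 96 hpf, 1 each for 32 genes and more than 1 for 16 genes. In 11 of those 16 the same transcript led in all 4 libraries, and in 5 (hoxa3a, hoxb9a, hoxb10a, hoxc10a and hoxc11a) it did not. Among those 11 the largest difference between groups was that of hoxc6a, whose leading transcript took 56.3% and 55.1% of the gene in BaP larvae against 87.3% and 68.0% in control larvae. hoxb2a split at 54.0% for its leading transcript in all 4 libraries, with almost no spread between them, on only 124 to 161 reads for the gene. How reads were divided between transcripts is not given, so this share is not read as a measured ratio. Other shares differed widely between replicates of a group, as in hoxc10a, at 53.5% and 27.1% in BaP larvae against 69.1% and 53.6% in control larvae. No test was made on transcripts.

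The genes that work with Hox proteins or control Hox transcription gave no call either. They were taken from lists chosen for their known roles. Of 14 cofactors of the Pbx, Meis and Pknox families, which bind DNA together with Hox proteins, 13 were listed, 0 were called, 3 were above control and the median log2 difference was -0.10. The lowest p belonged to pbx3b, at 59.1 and 42.7 CPM in BaP larvae against 69.996 and 68.0 CPM in control larvae (log2 difference -0.45 ± 0.17, limma adjusted p = 0.275). It was followed by pknox1.1, at 10.4 and 12.9 CPM in BaP larvae against 8.80 and 6.88 CPM in control larvae (0.54 ± 0.22, limma adjusted p = 0.295). The BaP and control libraries of both genes did not overlap. In the RefSeq table pknox1.1 differed by only 0.06 ± 0.17, and pbx3b by -0.35 ± 0.15. The log2 difference of pbx3b was -0.70 without BaP replicate 1 and -0.22 without BaP replicate 2. Like the Hox genes, 12 of the 13 cofactors were higher in control replicate 1 than in control replicate 2.

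Of 24 upstream regulators, among them Cdx factors and the retinoic acid pathway that switches Hox genes on in order, 19 were listed, 0 were called, 12 were above control and the median was 0.03. The retinoid X receptor gene rxrba had 16.2 and 11.1 CPM in BaP larvae against 18.7 and 25.8 CPM in control larvae (log2 difference -0.69 ± 0.24, limma adjusted p = 0.247). The retinoic acid receptor gene rarga had 49.8 and 44.2 CPM in BaP larvae against 55.1 and 60.7 CPM in control larvae (-0.30 ± 0.14, limma adjusted p = 0.329). Both receptors were lower in each BaP library than in each control library. The log2 difference of rxrba was -0.97 without BaP replicate 1 and -0.43 without BaP replicate 2.

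Of 32 Polycomb and Trithorax genes, which keep Hox genes off or on after they are set, 28 were listed, 0 were called, 16 were above control and the median was 0.02. jarid2a, which helps bring Polycomb repressive complex to chromatin, had 8.15 and 5.47 CPM in BaP larvae against 11.4 and 15.3 CPM in control larvae (log2 difference -0.93 ± 0.25, limma adjusted p = 0.197). kdm6bb, an eraser of the Polycomb histone mark, had 119 and 113 CPM in BaP larvae against 169 and 143 CPM in control larvae (-0.42 ± 0.13, limma adjusted p = 0.231). Neither difference passed the test. In the RefSeq table kdm6bb differed by -1.22 ± 0.27 (limma adjusted p = 0.132). The log2 difference of jarid2a was -1.21 without BaP replicate 1 and -0.66 without BaP replicate 2.

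All 17 genes chosen from those that flank Hox clusters or belong to the sister ParaHox set were listed. Among these 17, 0 were called, 11 were above control and the median was 0.18. The cluster neighbours mtx2, a mitochondrial import gene, and hibadhb, a valine breakdown enzyme, had the smallest p. mtx2 had 39.2 and 42.3 CPM in BaP larvae against 29.9 and 36.3 CPM in control larvae (log2 difference 0.30 ± 0.15, limma adjusted p = 0.364). hibadhb had 81.8 and 92.3 CPM in BaP larvae against 66.4 and 77.9 CPM in control larvae (0.27 ± 0.14, limma adjusted p = 0.371). In both genes control replicate 2 was the higher of the control libraries, but 9 of the 17 genes were higher in control replicate 1.

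At 3.3 hpf, before Hox genes are normally switched on, 5 of the 48 genes were listed, and 43 were not listed. Every listed gene had passed the authors' minimum of more than 1 CPM in at least 3 libraries. Those listed were hoxa13b, hoxb2a, hoxc11a, hoxd9a and hoxd12a, of which 4 came from the 22 genes of groups 9 to 13 and 1 from the 26 genes of groups 1 to 8. No gene of group 3, which drew the most reads at 96 hpf, was among the 5. Group 9, the group of hoxd9a, took 10.5% of Hox CPM in BaP larvae at 96 hpf and 10.4% in control larvae. The RefSeq table listed 6, the same 5 and hoxc3a, whose values there were 1.75, 2.13 and 3.09 CPM in BaP embryos against 3.19, 2.59 and 3.67 CPM in control embryos. Tables of the 2 ages were scaled and filtered separately, so levels at the 2 ages are not compared.

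**Figure D5:**
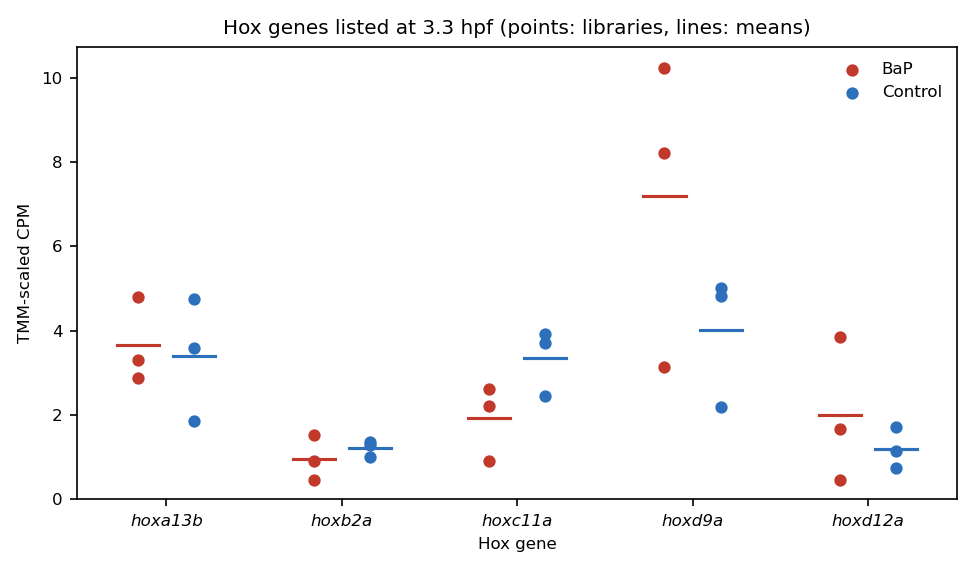
TMM-scaled CPM of the 5 Hox genes listed at 3.3 hpf, with 3 BaP libraries (red) and 3 control libraries (blue); points are libraries and lines are means. The groups overlap for all 5 genes.

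hoxd9a, a gene of the posterior trunk and fin buds, had the highest mean of the 5 in both BaP and control embryos. Its libraries stood at 8.22, 10.2 and 3.13 CPM in BaP embryos against 2.19, 5.01 and 4.81 CPM in control embryos. It averaged 7.20 ± 3.66 CPM in BaP embryos and 4.003 ± 1.57 CPM in control embryos (SD, n = 3 each), a log2 difference of 0.70 ± 0.49 (SE; limma adjusted p = 0.910). BaP replicates 1 and 2 stood above all controls and BaP replicate 3 among them. In BaP replicate 3 hoxa13b was higher than hoxd9a, at 3.31 CPM. hoxc11a had 2.22, 2.62 and 0.902 CPM in BaP embryos against 2.44, 3.71 and 3.92 CPM in control embryos, a log2 difference of -0.73 ± 0.39 (limma adjusted p = 0.907). Its groups touched, since BaP replicate 2 was above control replicate 1.

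hoxa13b had 2.88, 4.79 and 3.31 CPM in BaP embryos against 1.85, 3.58 and 4.75 CPM in control embryos, a log2 difference of 0.15 ± 0.38. hoxd12a had 1.66, 3.84 and 0.447 CPM in BaP embryos against 0.730, 1.71 and 1.15 CPM in control embryos, a log2 difference of 0.33 ± 0.57. hoxb2a had 0.908, 1.52 and 0.447 CPM in BaP embryos against 1.29, 0.990 and 1.36 CPM in control embryos, a log2 difference of -0.30 ± 0.37. BaP replicate 2 was the highest BaP library in all 5 genes and BaP replicate 3 the lowest in 4 of them. The lowest values of hoxb2a and hoxd12a, both in BaP replicate 3, rested on 10 reads. The transcript table listed 3 Hox transcripts at this age, hoxa13b-001, hoxc11a-201 and hoxd9a-001.

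limma called 0 of the 5 Hox genes at 3.3 hpf and 0 of 14236 genes (0.00%), with 0 of the 5 and 700 of all genes at an unadjusted p under 0.05. The groups overlapped in all 5, where BaP libraries lay wholly above control libraries in 6.24% of all genes and wholly below in 5.30%. The 95% intervals of the 5 reached -1.65 and 1.85, and 0 of them lay wholly between -1 and 1, so 2-fold changes could not be resolved here. Over all genes at 3.3 hpf 51.0% were above control, with a median log2 difference of 0.005. Of the cofactor list 9 genes were listed, 8 above control, with a median of 0.28 and 0 called. The regulators had 9 listed, 6 above control and a median of 0.27. The Polycomb and Trithorax genes had 26 listed, 15 above control and a median of 0.01, and the neighbours had 11 listed, 2 above control and a median of -0.11, again with 0 called.

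The genes of these lists with the smallest p at 3.3 hpf were different ones from 96 hpf with the exception of rxrba. rxrba had 113, 132 and 113 CPM in BaP embryos against 109, 93.9 and 93.9 CPM in control embryos (log2 difference 0.27 ± 0.11, limma adjusted p = 0.907), with every BaP library above every control library, opposite to its order at 96 hpf. The difference between ages was not tested. mll, the Trithorax methyltransferase also called kmt2a, had 258, 289 and 318 CPM in BaP embryos against 240, 234 and 239 CPM in control embryos (0.28 ± 0.09, limma adjusted p = 0.907). Its partner rbbp5 differed by -0.19 ± 0.11. snx10a, a Hox cluster neighbour, had 52.1, 62.1 and 66.2 CPM in BaP embryos against 70.6, 87.9 and 82.4 CPM in control embryos (-0.42 ± 0.14, limma adjusted p = 0.907). The ParaHox gene pdx1 had 27.9, 13.5 and 0.939 CPM in BaP embryos against 24.2, 15.0 and 24.3 CPM in control embryos, a spread of BaP libraries wider than the distance between groups. The log2 differences of raraa, pknox1.2 and pbx2 were 0.60 ± 0.27, 0.60 ± 0.32 and 0.28 ± 0.20.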

How the data were processed

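Pooled whole zebrafish were sequenced at both ages with TruSeq libraries, as the labels give it. TopHat, Partek, edgeR and the build Zv9 appear in the submitters' processing notes, without versions or roles. The deposited values are CPM, filtered by the authors before deposit. CPM is not corrected for length, and no count test was run because its values could not be turned back into whole reads. The estimated CPM of 1 read gave the depth. The main test was limma 3.58.1 in R 4.3.3 with a trend of the spread, on log2(TMM-scaled CPM + 0.5), two-sided, with group as the only term and Benjamini-Hochberg adjustment over all listed genes of an age. TMM factors trimmed 30% of log ratios and 5% of average levels at each end. The test was tried on simulated data first.

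The Hox members, lists and tests were chosen with earlier results of these data known. Genes named with all library values are the leading gene of each cluster copy, the 3 highest and 3 lowest differences, every gene listed at 3.3 hpf and the 2 smallest p of each list; pairs are given as means. Naming of further genes (the top and bottom of the order, hoxa11b, hoxc6a and hoxc10a transcripts) followed sight of their values. Alternatives were RLE scaling, CPM as deposited, a pseudocount of 2, a minimum mean of 3 CPM, the RefSeq table, no trend, a replicate block and each library left out. Whether replicate numbers pair the samples is not known. Deviations of same-numbered libraries correlated at -0.26 at 96 hpf and between -0.44 and -0.01 at 3.3 hpf. These values cannot decide it, since with 2 libraries a group both replicates at 96 hpf give the same value. RefSeq column letters at 3.3 hpf were matched to groups only. 0 columns were left unused. Names came from the RefSeq table of GRCz12tu, whose coordinates were used to find overlapping spans and are not printed, since its build differs from Zv9.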

Additional observations from a re-analysis of the deposited data

How the results depend on the processing

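Under every alternative run, 0 Hox genes were called at either age; the lowest adjusted p of a Hox gene was 0.0910, without BaP replicate 1. Over all genes at 96 hpf the 80 calls became 38 with CPM as deposited, 2 without a trend of the spread and 155 with the replicate block, and ran between 32 and 3223 with 1 library left out. The replicate block called 0 Hox genes and changed no call of a named gene. The crossed pairing, added after seeing the data, called 2179 genes, 0 of them Hox genes, with 1 cofactor, 1 regulator and 3 Polycomb or Trithorax genes. With 1 library left out at 96 hpf, cofactors, regulators, Polycomb and Trithorax genes and neighbours passed only without BaP replicate 1. That fit also called the most genes in all, and whether these lists exceeded all genes in it was not tested. The lone library left in an arm at 96 hpf is then assumed to vary like the other group. hoxb5b became -0.043 with CPM as deposited and ran between -0.22 and 0.30 with 1 library left out. hoxa9b became -0.046 in the RefSeq table and ran between -0.052 and 0.27. At 3.3 hpf 0 to 1 of all genes were called with 1 library left out, hoxa13b ran between -0.17 and 0.41, and hoxd12a between -0.20 and 0.90. In the RefSeq table the Hox sum at 96 hpf was 540 CPM in BaP larvae, group 3 took 22.4% in BaP larvae and 23.2% in control larvae, and copy ba took 31.5% and 34.0%. The cause of these shifts was not tested. The planned CPM per kilobase was not run, for want of gene lengths. At 14 to 17 reads the lowest Hox genes carry wide counting error.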
